A study of Saccharomyces cerevisiae with 12 samples.

Results

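Molecular chaperones bind unfolded or aggregated proteins and help them to fold, and each compartment of the yeast cell has its own set. On the ribosome, the Hsp70s Ssb1p and Ssb2p, their partners Ssz1p and Zuo1p and the nascent polypeptide-associated complex (Egd1p and Egd2p) meet nascent chains. In the cytosol, Hsp70 and Hsp90 work with J-domain proteins and cochaperones, the CCT ring folds actin and tubulin, and Hsp104p and small heat shock proteins deal with aggregates, while mitochondria and the endoplasmic reticulum have their own Hsp70s. The mRNAs of 48 such genes, chosen by name from 7130 listed features, were followed here through shut-off of *GLN4*, the gene of the glutaminyl tRNA synthetase. They were sorted by the place and role of their products into 6 ribosome-bound, 10 cytosolic stress-induced, 13 other cytosolic Hsp70 and Hsp90 system, 8 CCT ring, 5 mitochondrial and 5 endoplasmic reticulum genes and the heat shock transcription factor gene *HSF1*. The group called cytosolic stress-induced holds 2 genes whose products are at membranes, *HSP30* and *HSP12*.

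RNA sequencing covered 12 cultures in 4 conditions, with 3 cultures each. The study's methods start from 3 independent colonies, and the labels use the letters A to C at both doses of a strain. Treated and untreated cultures of a strain may therefore be paired by colony, which the pooled values cannot take into account. The tetO-*GLN4* strain carries a KanMX4-tTA-tetO7 cassette at the promoter of *GLN4*, so that doxycycline represses its transcription. It was grown in rich YEPD medium at 30°C with 1 μg/ml doxycycline or with none, and the wild-type strain BY4742 was grown in the same 2 ways. Both strains are haploid *MATα* with mutated *his3*, *leu2*, *lys2* and *ura3*, and tetO-*GLN4* is represented by a single strain, which also carries the tTA activator and the KanMX4 marker. The study's methods describe overnight growth in doxycycline and harvest in mid-log phase, so no time course after shut-off was measured.

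Each measurement is an FPKM (fragments counted per gene and scaled to transcript length and library size) from Cuffdiff, which combined the 3 cultures of a condition into 1 value with a 95% confidence interval. A gene is said to have risen or fallen where the intervals of the 2 conditions of a strain lay apart. The ratios are log2 of FPKM with doxycycline over FPKM without it, and their SD was taken from the intervals. No values per culture were analysed, so the spread between cultures could not be examined and the depth is unknown. The strains were normalized in separate tables, so their levels can only be set side by side. The labels were checked on *GLN4* itself. It had 30.5 FPKM in tetO-*GLN4* with doxycycline, while without doxycycline it is listed at 0 because Cuffdiff stopped at too many fragments. The shut-off within this strain can therefore not be measured from these values. The wild type had 199.2 FPKM with doxycycline and 199.3 FPKM without. *LEU2*, *LYS2* and *URA3*, mutated in both strains, are listed at 0 in all 4 conditions, so they do not tell the strains or the doses apart.

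Of the 48 chaperone genes, 13 rose, 8 fell and 27 did not separate in tetO-*GLN4*. Among all 6553 features tested in this strain 15.0% rose and 16.1% fell. In the wild type 0 of the 48 rose or fell, against a background of 0.0915% of features higher and 0.0610% lower with doxycycline. A z test built on the intervals gave 0 members at an unadjusted p under 0.05. It passed only 27 of all 6560 features tested in the wild type, so this 0 adds little. The wild-type ratios of the members ran between -0.32 (*HSP82*) and 0.07 (*CCT2*). The change in tetO-*GLN4* differed from that in the wild type for 18 of the 48 genes by a z test of the difference of the ratios with Benjamini-Hochberg adjustment over 6538 features, a test that 23.5% of features passed.

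The medians of the groups differed in sign, with no test between groups. The median log2 ratio in tetO-*GLN4* was -1.12 for the ribosome-bound genes, 0.87 for the cytosolic stress-induced genes, 0.36 for the other cytosolic genes, 0.12 for the mitochondrial genes, -0.18 for the CCT ring and -0.46 for the endoplasmic reticulum, against 0.0071 over all features tested. These medians depend on the scale, because abundant mRNAs fell in this strain. Centring on the FPKM-weighted mean added 0.67 to every log2 ratio. It turned the medians of the CCT ring and the endoplasmic reticulum to 0.49 and 0.22, while the ribosome-bound median stayed below 0 at -0.45. On that scale 26 members were higher and 2 lower, beside 45.9% and 4.27% of all features.

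**Figure D1:**
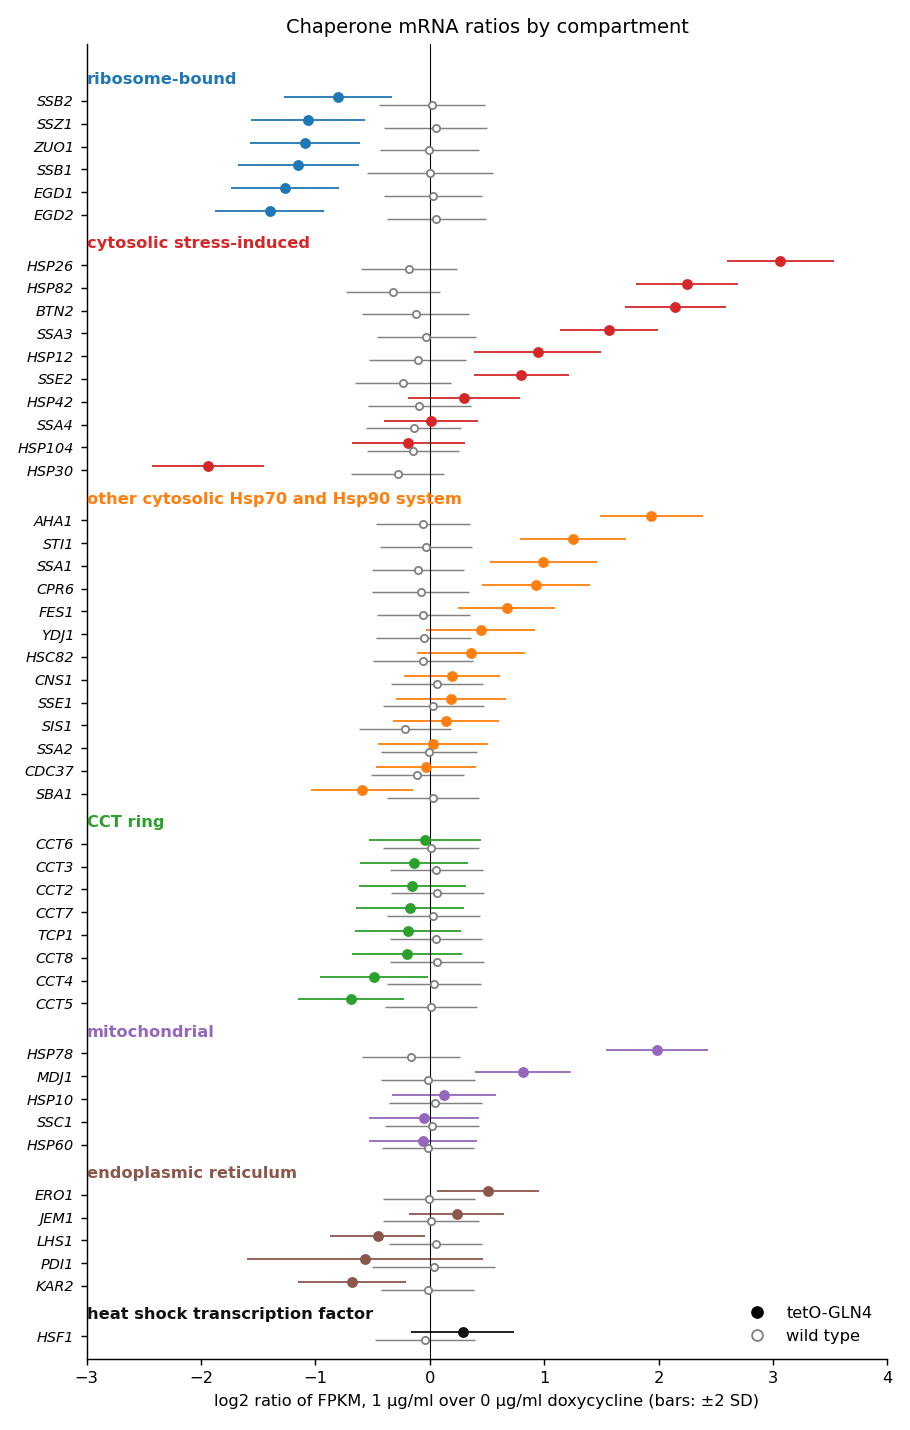
Log2 ratio of FPKM with 1 μg/ml doxycycline over FPKM without it for the 48 chaperone genes, by compartment, in tetO-*GLN4* (filled points) and the wild type (open points), with bars of 2 SDs on each side taken from the 95% confidence intervals. All 6 ribosome-bound genes lie at -0.80 or below in tetO-*GLN4*, the highest gene is *HSP26* at 3.07 and the lowest is *HSP30* at -1.94, and the wild-type points lie between -0.32 and 0.07.

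Upstream sequences were searched because 2 transcription factor systems, Hsf1p and the pair Msn2p and Msn4p, are known to drive chaperone genes under stress. The heat shock element bound by Hsf1p was taken as 3 alternating inverted GAA units, GAANNTTCNNGAA or its reverse complement TTCNNGAANNTTC, within 500 bases before the start codon. It was found upstream of 14 of the 48 chaperone genes (29.2%) and of 89 of 6006 genes (1.48%). The sites below are shown with 20 bases on each side, in the direction of the gene, with the element in capitals, from the RefSeq sequence of assembly R64. The first 4 stand upstream of genes that rose and the last 4 upstream of genes that did not separate.

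BTN2 (chrVII:772090-772147, + strand): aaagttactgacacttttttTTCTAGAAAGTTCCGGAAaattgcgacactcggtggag
HSP78 (chrIV:974453-974510, - strand): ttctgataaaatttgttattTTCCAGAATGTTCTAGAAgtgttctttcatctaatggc
AHA1 (chrIV:892554-892606, + strand): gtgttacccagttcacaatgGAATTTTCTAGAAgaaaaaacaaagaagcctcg
STI1 (chrXV:380817-380869, + strand): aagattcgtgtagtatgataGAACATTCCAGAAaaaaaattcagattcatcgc
HSP104 (chrXII:88301-88358, + strand): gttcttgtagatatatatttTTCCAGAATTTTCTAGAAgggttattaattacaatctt
HSP42 (chrIV:806358-806415, + strand): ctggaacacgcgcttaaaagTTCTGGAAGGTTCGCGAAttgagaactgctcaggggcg
SIS1 (chrXIV:619867-619929, - strand): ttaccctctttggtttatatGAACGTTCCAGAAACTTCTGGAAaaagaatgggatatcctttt
KAR2 (chrX:381102-381159, + strand): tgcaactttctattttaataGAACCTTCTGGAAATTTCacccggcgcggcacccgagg

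The printed elements of *BTN2*, *HSP78*, *HSP104*, *HSP42* and *KAR2* extend over 18 bases, that of *SIS1* over 23 and those of *AHA1* and *STI1* over 13. The elements of *SSA2*, *SSE1*, *HSP60* and *HSP10*, which did not separate either, also have 13 bases and are not printed. By outcome, the element was found in 6 of the 13 genes that rose, 8 of the 27 that did not separate and 0 of the 8 that fell. Among the 87 tested genes of the genome that hold it, 15 rose (17.2%) and 17 fell, close to the background of all features. *HSP26* and *HSP82*, the members with the highest ratios, had no match to these letters in the window. Each had the shorter stress response element AGGGG or CCCCT of Msn2p and Msn4p, as did 15 members (31.2%) and 34.1% of all genes. A match is a run of letters, not a measured site. Only these exact letters and this spacing were searched, so a gene without a match can still hold a variant of the element.

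HSP26 (chrII:381684-381728, + strand): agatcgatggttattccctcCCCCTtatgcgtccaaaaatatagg
HSP82 (chrXVI:98750-98794, - strand): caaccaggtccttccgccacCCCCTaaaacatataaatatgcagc

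In these 2 sequences the capitals mark the stress response element. *HSP26* has 3 such matches, *HSP82* has 2 and *HSP12* has 5. *HSP30*, the gene that fell most, has 0 matches to the heat shock, stress response and unfolded protein response letters in its window.

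**Figure D2:**
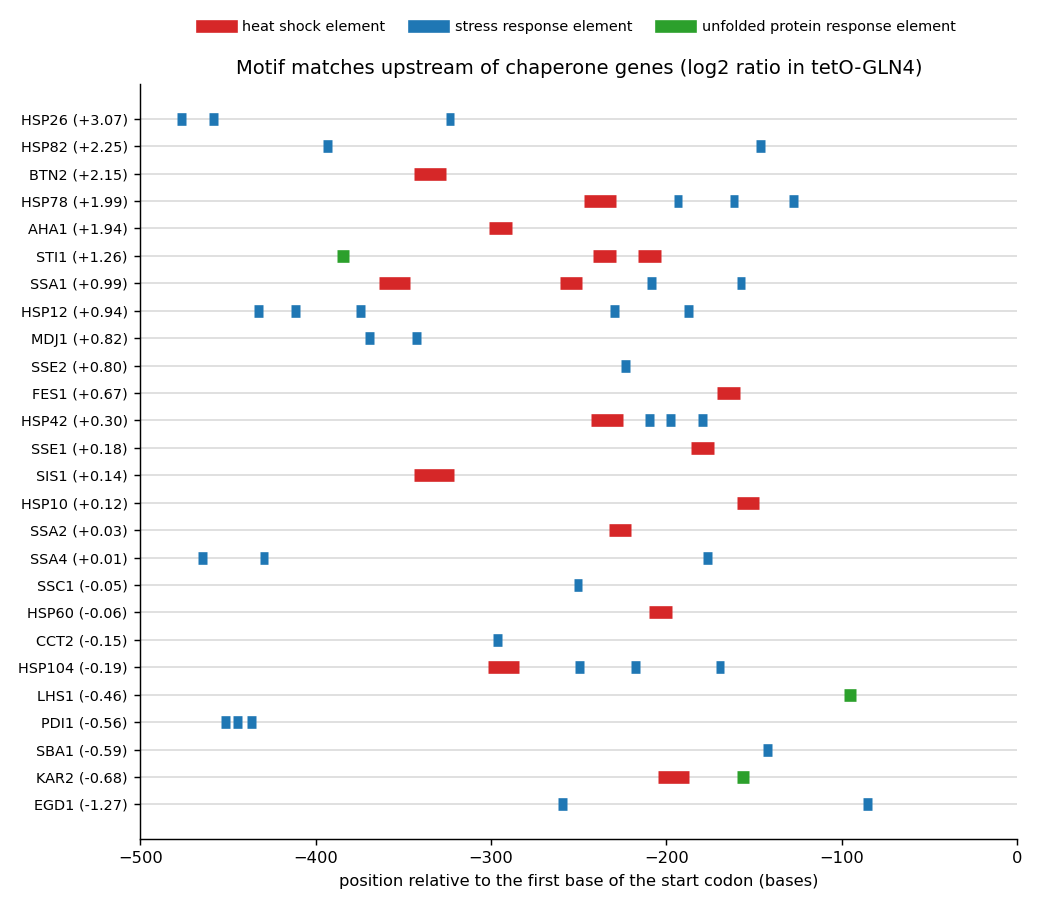
Position of motif matches, in bases before the start codon, for the chaperone genes with at least 1 match, ordered by log2 ratio in tetO-*GLN4* (in brackets). Matches to the heat shock element (red) are found from *BTN2* (2.15) down to *KAR2* (-0.68). *HSP26* and *HSP82* at the top match the letters of the stress response element only (blue), and variants of the elements were not searched.

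All 6 ribosome-bound genes fell in tetO-*GLN4*. *EGD2* and *EGD1*, the α and β subunits of the nascent polypeptide-associated complex, had the lowest ratios of the 6, although neighbours in this order lay within 1 SD of their difference. *EGD2* had 1153 FPKM (95% confidence interval 885 to 1421) with doxycycline and 3039 FPKM (2324 to 3753) without it, a log2 ratio of -1.40 (SD 0.24). *EGD1* had 1176 FPKM (905 to 1447) with doxycycline and 2828 FPKM (2162 to 3494) without it, a log2 ratio of -1.27 (SD 0.24). The 2 subunits bind each other as a heterodimer, and *EGD1* made up 50.5% of their summed FPKM with doxycycline and 48.2% without.

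The ribosome-associated complex of the atypical Hsp70 Ssz1p and the J-domain protein Zuo1p, which stimulates Ssb1p and Ssb2p, fell to a similar extent. *SSZ1* had 309 FPKM (234 to 385) with doxycycline against 647 FPKM (490 to 805) without, and *ZUO1* had 441 FPKM (338 to 544) against 940 FPKM (720 to 1161). Their log2 ratios were -1.07 (SD 0.25) and -1.09 (SD 0.24). *SSB1* had 607 FPKM (448 to 767) with doxycycline and 1347 FPKM (1007 to 1687) without, a log2 ratio of -1.15 (SD 0.26). *SSB2* fell least, with 724 FPKM (555 to 893) against 1264 FPKM (974 to 1554), a log2 ratio of -0.80 (SD 0.24).

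The coding sequences of *SSB1* and *SSB2* are 97.5% identical with a shared run of 563 bases, so the division of reads between them is uncertain, but their sum also fell, with a log2 ratio of -0.97. In the wild type the 6 ratios lay between -0.0045 and 0.06. The change differed from that in the wild type for 5 of the 6, while *SSB2* missed the threshold of 0.05. The decrease is best read beside other abundant genes. The 138 genes taken by name as cytosolic ribosomal protein genes had a median log2 ratio of -1.07, with 124 lower. Their median level without doxycycline was 4702 FPKM, above the 1305 FPKM of the ribosome-bound genes. Of the 330 features at 1000 FPKM or more without doxycycline 73.0% fell, with a median of -1.06, and between 300 and 1000 FPKM, where *SSZ1* and *ZUO1* stood, 34.4% fell, with a median of -0.44. These ranges, here and below, are set by the level without doxycycline, which is also the denominator of the ratio. How much of the trend comes from that was not tested. After the centring on the FPKM-weighted mean the 6 genes stayed below 0, but only *EGD2* kept intervals that lay apart.

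**Figure D3:**
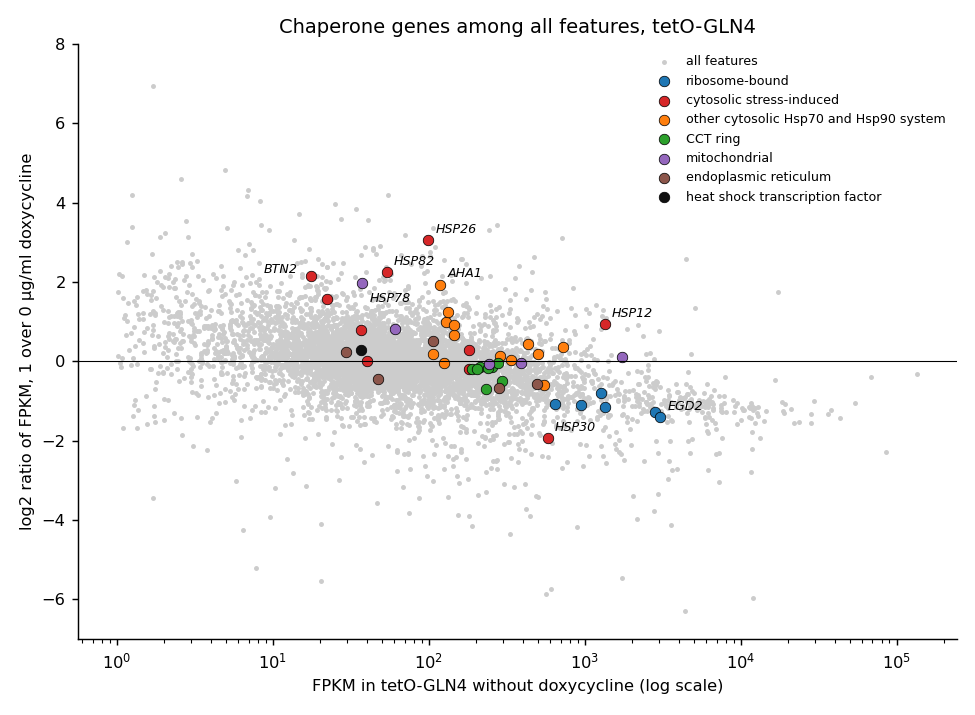
Log2 ratio in tetO-*GLN4* (doxycycline over none) against FPKM without doxycycline on a log axis, for features of at least 1 FPKM (grey) and the chaperone genes by compartment (coloured). Ratios run lower as the level rises, and *EGD2* at 3039 FPKM lies among the fallen abundant features, while *HSP12* at 1340 FPKM stands above them. The level on the horizontal axis is also the denominator of the ratio, which can by itself add to such a slope.

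The cytosolic stress-induced genes did not act as a block. Of the 10, 6 rose, 1 fell and 3 did not separate. *HSP26*, a small heat shock protein that holds unfolded proteins, had 829 FPKM (636 to 1021) with doxycycline against 98.9 FPKM (76.5 to 121) without, a log2 ratio of 3.07 (SD 0.23), or 8.37-fold. Only 41 of 6553 features had a higher ratio. The wild type had 125 FPKM (99.0 to 151) of it with doxycycline and 142 FPKM (112 to 171) without, so the doxycycline-treated tetO-*GLN4* cultures stood above the other 3 conditions.

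The same held for *HSP82*, the inducible Hsp90, and for *BTN2*, which sorts misfolded proteins into cytosolic deposits. *HSP82* had 256 FPKM (196 to 316) in tetO-*GLN4* with doxycycline and 53.8 FPKM (42.7 to 64.8) without, against 36.7 and 46.0 FPKM in the wild type with and without it. *BTN2* had 77.7 FPKM (62.0 to 93.5) and 17.6 FPKM (13.6 to 21.6), against 15.0 and 16.4 FPKM in the wild type. Their log2 ratios were 2.25 (SD 0.22) and 2.15 (SD 0.22). The Hsp70 gene *SSA3* had 66.0 FPKM (52.3 to 79.7) with doxycycline and 22.3 FPKM (17.6 to 27.0) without, a log2 ratio of 1.57 (SD 0.21). *SSE2*, a nucleotide exchange factor for Hsp70, had 64.2 and 36.9 FPKM, a log2 ratio of 0.80 (SD 0.21).

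*SSA4*, like *SSA3* a heat-inducible Hsp70 gene, had 40.7 FPKM with doxycycline (32.5 to 48.8) and 40.4 FPKM without (32.2 to 48.6) in tetO-*GLN4*. It had 37.1 and 40.9 FPKM in the wild type with and without doxycycline, so all 4 intervals overlapped. The ratios of the pair were thus 1.57 for *SSA3* and 0.01 for *SSA4*, and the share of *SSA3* in their summed FPKM was 61.9% with doxycycline and 35.6% without, beside 36.1% and 34.3% in the wild type. Their coding sequences are 76.7% identical, with no shared run longer than 17 bases.

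*HSP104*, the disaggregase, and *HSP42*, a small heat shock protein that gathers aggregates, were high in tetO-*GLN4* in both conditions. *HSP104* had 158 FPKM (121 to 195) with doxycycline and 180 FPKM (134 to 226) without, against 50.7 FPKM (40.7 to 60.8) and 56.1 FPKM (45.0 to 67.2) in the wild type. *HSP42* had 223 FPKM (174 to 273) and 182 FPKM (135 to 229), against 28.3 FPKM (22.1 to 34.5) and 30.1 FPKM (23.5 to 36.7) in the wild type. Within tetO-*GLN4* the ratio was -0.19 (SD 0.25) for *HSP104* and 0.30 (SD 0.25) for *HSP42*, and neither separated.

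*HSP30*, which encodes a plasma membrane protein that restrains the proton pump Pma1p, was the member with the lowest ratio. It had 151 FPKM (119 to 182) in tetO-*GLN4* with doxycycline and 578 FPKM (421 to 734) without, a log2 ratio of -1.94 (SD 0.25), or 3.84-fold lower with doxycycline. Wild-type cultures had 113 FPKM (90.6 to 136) with doxycycline and 138 FPKM (110 to 165) without. The untreated tetO-*GLN4* cultures were thus the condition that stood apart, and the interval of the treated ones overlapped both wild-type intervals.

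*HSP12* encodes a small membrane-associated stress protein. It had 2575 FPKM (1979 to 3170) in tetO-*GLN4* with doxycycline and 1340 FPKM (928 to 1752) without, a log2 ratio of 0.94 (SD 0.28). Wild-type cultures had 4657 FPKM (3698 to 5617) with doxycycline and 5015 FPKM (3976 to 6055) without. The rise in tetO-*GLN4* therefore ended at a level below both wild-type conditions.

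**Figure D4:**
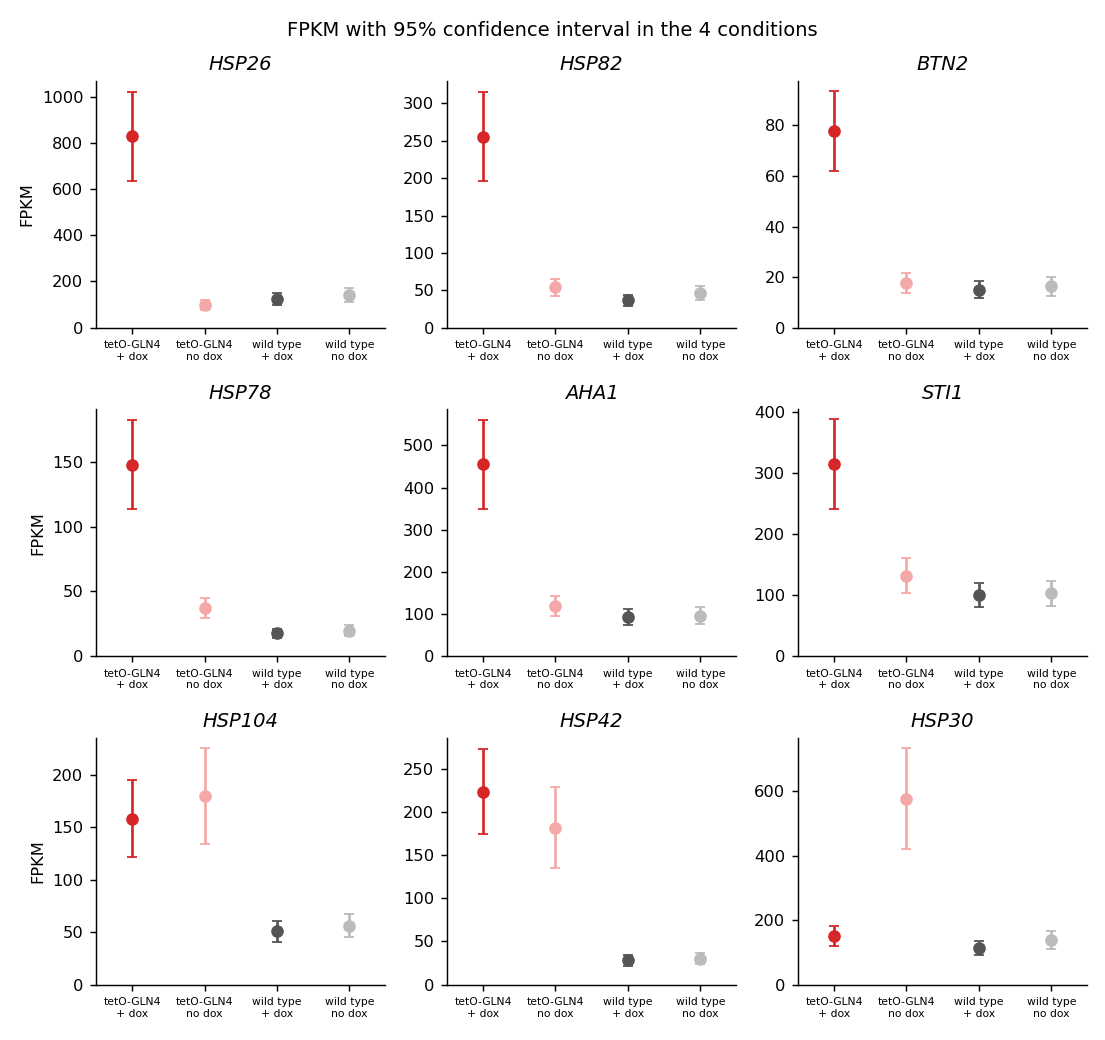
FPKM of 9 chaperone genes in the 4 conditions, with 95% confidence intervals, on linear axes that start at 0. *HSP26*, *HSP82*, *BTN2*, *HSP78*, *AHA1* and *STI1* are highest in tetO-*GLN4* with doxycycline, *HSP104* and *HSP42* are high in tetO-*GLN4* with and without it, and *HSP30* is highest in tetO-*GLN4* without it at 578 FPKM.

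The levels of the untreated strains were set side by side for all 48 genes, with the limit of their separate normalization and beside the fact that the log2 of tetO-*GLN4* over wild type had a median of 0.15 over all features. The intervals overlapped for 43 members. They lay apart for *HSP42* (log2 2.59), *HSP30* (2.07), *HSP104* (1.68) and *HSP78* (0.92), higher in tetO-*GLN4*, and for *HSP12* (-1.90), lower in tetO-*GLN4*. Of 6562 features in this comparison, 21 stood above *HSP42*, 45 above *HSP30*, 85 above *HSP104* and 290 above *HSP78*, and 13 stood below *HSP12*. The share of all features with intervals apart between the untreated strains was not counted, so the member counts have no background. The 4 members of this group that rose most with doxycycline, *HSP26*, *HSP82*, *BTN2* and *SSA3*, had overlapping intervals in the untreated strains. Differences between the untreated strains cannot be told apart from the integrated cassette, the level of *GLN4* before shut-off or the separate normalization.

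In the wild type all 10 stress-induced genes had a ratio below 0, from -0.32 to -0.03, though 0 of them separated. Either centring moved wild-type ratios by less than 0.01.

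Among the other cytosolic genes 5 of 13 rose, 0 fell and 8 did not separate. Of these 5, 3 were Hsp90 cochaperones. *AHA1*, which stimulates the ATPase of Hsp90, had 455 FPKM (349 to 561) with doxycycline and 119 FPKM (94.2 to 143) without in tetO-*GLN4*, against 92.4 and 96.3 FPKM in the wild type. The log2 ratio of *AHA1*, 1.94 (SD 0.22), was on the level of *HSP82* and *BTN2*, with 175 of all features above it. *STI1*, the adaptor that passes clients between Hsp70 and Hsp90, had 315 FPKM (241 to 388) and 132 FPKM (103 to 161), a log2 ratio of 1.26 (SD 0.23). *CPR6*, a prolyl isomerase that binds Hsp90, had 277 FPKM (211 to 343) and 146 FPKM (113 to 178), a log2 ratio of 0.93 (SD 0.24).

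The other 3 cochaperones did not rise. *SBA1*, the yeast p23 that stabilizes closed Hsp90, had 364 FPKM (286 to 442) with doxycycline and 549 FPKM (426 to 671) without, a log2 ratio of -0.59 (SD 0.22). *CNS1* had a ratio of 0.19 (SD 0.21) and the kinase-specific cochaperone gene *CDC37* a ratio of -0.03 (SD 0.22). The SD across the 6 cochaperone genes was 0.93 on the log2 scale, against 0.07 in the wild type. *SBA1* was among 2 members, with *KAR2*, that the z test within tetO-*GLN4* called lower while their intervals overlapped.

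The constitutive Hsp90 gene *HSC82* had 931 FPKM (717 to 1145) with doxycycline and 725 FPKM (555 to 894) without, a ratio of 0.36 (SD 0.24) that did not separate. Since *HSP82* rose beside it, *HSP82* made up 21.5% of the summed Hsp90 FPKM with doxycycline and 6.91% without, against 6.59% and 7.81% in the wild type. The sum was 1187 FPKM with doxycycline and 778 FPKM without, a log2 ratio of 0.61. In the sum *HSC82* still contributed most of the Hsp90 mRNA. The coding sequences of the pair are 91.7% identical.

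Among the Hsp70 genes *SSA1* rose, with 255 FPKM (195 to 314) against 128 FPKM (99.4 to 157), a log2 ratio of 0.99 (SD 0.23). *SSA2* had 344 FPKM (263 to 424) and 337 FPKM (257 to 418), a ratio of 0.03 (SD 0.24). *SSA1* took 42.6% of their sum with doxycycline and 27.5% without, beside 24.2% and 25.5% in the wild type. The coding sequences are 96.4% identical, so reads shared by both could be divided in either way, and the sum had a ratio of 0.36. *SSA1* also shares its locus with YAL004W on the other strand.

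Of the Hsp70 cofactors, *FES1*, a nucleotide exchange factor that releases misfolded clients, rose with 231 FPKM (182 to 280) against 145 FPKM (116 to 174), a log2 ratio of 0.67 (SD 0.21). Its change missed the threshold in the test against the wild type. The J-domain genes *YDJ1* and *SIS1* had ratios of 0.44 (SD 0.24) and 0.14 (SD 0.23), and *SSE1*, the abundant paralog of *SSE2*, had 0.18 (SD 0.24). The intervals of these 3 overlapped. *SIS1* had 315 and 285 FPKM in tetO-*GLN4* with and without doxycycline, and 165 and 192 FPKM in the wild type.

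**Figure D5:**
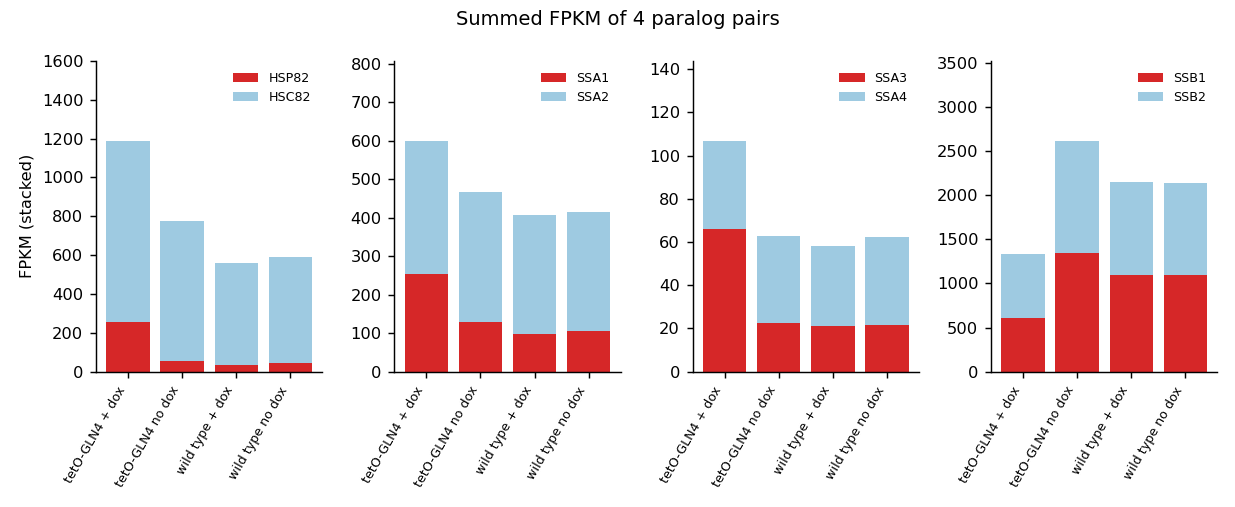
Summed FPKM of 4 paralog pairs in the 4 conditions, stacked by gene, on axes that start at 0 and differ between panels. *HSP82*, *SSA1* and *SSA3* take a larger share of their pair in tetO-*GLN4* with doxycycline (21.5%, 42.6% and 61.9%), and the sum of *SSB1* and *SSB2* is lowest there.

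The genes of the CCT ring, whose 8 different subunits assemble in equal number, stayed close together. The FPKM of the subunits ran from 145 to 268 with doxycycline and from 189 to 297 without in tetO-*GLN4*, with a coefficient of variation over the subunits of 19.3% and 15.2%, beside 13.3% and 14.0% in the wild type with and without doxycycline. All 8 ratios lay below 0 on the deposited scale, from -0.04 (*CCT6*) to -0.69 (*CCT5*), and the median of -0.18 turned to 0.49 after the centring on the FPKM-weighted mean. *CCT5* alone separated, with 145 FPKM (113 to 178) against 234 FPKM (180 to 289), a log2 ratio of -0.69 (SD 0.23). It kept neither its call under that centring, with a ratio of -0.02, nor passed the test against the wild type.

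*CCT4* was next, with 212 FPKM (164 to 260) and 297 FPKM (228 to 366), a ratio of -0.49 (SD 0.24). *TCP1*, *CCT2*, *CCT3*, *CCT7* and *CCT8* had ratios between -0.20 and -0.14, less than 1 SD from 0. The 8 wild-type ratios lay between 0.01 and 0.07. The features of 100 to 300 FPKM, the range of all 8 subunits without doxycycline, had a median ratio of -0.21 in tetO-*GLN4*, and 20.5% of them fell.

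Of the 5 mitochondrial genes 2 rose and 3 did not separate. *HSP78*, the Hsp104p-related disaggregase of the matrix, had 148 FPKM (114 to 182) with doxycycline and 37.4 FPKM (29.6 to 45.2) without in tetO-*GLN4*, against 17.6 FPKM (13.9 to 21.3) and 19.7 FPKM (15.6 to 23.9) in the wild type. The ratio was 1.99 (SD 0.22) on the log2 scale, and the 4 conditions gave 3 levels, with the untreated tetO-*GLN4* cultures between the treated ones and the wild type. *MDJ1*, the J-domain partner of the matrix Hsp70, had 108 FPKM (85.0 to 130) and 61.0 FPKM (48.8 to 73.3), a log2 ratio of 0.82 (SD 0.21).

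The chaperonin and the main matrix Hsp70 showed no separation. *HSP60* had 234 FPKM (179 to 288) with doxycycline and 244 FPKM (187 to 300) without, and its lid *HSP10* had 1883 FPKM (1463 to 2303) and 1730 FPKM (1346 to 2114). *SSC1*, the Hsp70 of protein import, had 377 and 389 FPKM. Their ratios lay between -0.06 and 0.12. *HSP10* stood in the range of 1000 FPKM or more, where 73.0% of features fell.

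Of the 5 endoplasmic reticulum genes 0 rose and 0 fell. The z test passed 3 of them at an unadjusted p under 0.05, *KAR2* and *LHS1* lower and *ERO1* higher, and *KAR2* alone after adjustment. Among all 6553 features tested in tetO-*GLN4*, 2994 passed it unadjusted and 2554 after adjustment, so such passes were common. *KAR2*, the BiP Hsp70 of the lumen, had 175 FPKM (135 to 216) against 280 FPKM (215 to 346), a log2 ratio of -0.68 (SD 0.24). The 2 intervals of *KAR2* touch by less than 1 FPKM, and they separated after centring on the median of all features. *LHS1*, its nucleotide exchange factor, had a ratio of -0.46 (SD 0.21) and *JEM1*, a J-domain partner, 0.23 (SD 0.21). *ERO1*, the oxidase that drives disulphide formation, had 151 FPKM (118 to 185) and 106 FPKM (83.6 to 129), a ratio of 0.51 (SD 0.22). *PDI1*, the disulphide isomerase that *ERO1* serves, had a ratio of -0.56 with an SD of 0.52.

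The wide error of *PDI1* came with an untreated interval of 178 to 816 FPKM, and the gene is given the same locus as *GLK1*. The median of the 5 genes was -0.46 on the deposited scale and 0.22 after the centring on the FPKM-weighted mean, so no direction of the group holds on both. The unfolded protein response element CAGCGTG or CACGCTG was found upstream of *KAR2* and *LHS1* and, among the other members, of *STI1* only. It was found upstream of 2.33% of all genes.

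*HSF1* encodes the activator of heat shock genes, whose activity is set mainly after transcription. It had 45.0 FPKM (35.0 to 55.1) with doxycycline and 36.9 FPKM (29.0 to 44.9) without in tetO-*GLN4*, a ratio of 0.29 (SD 0.22), and 29.8 and 30.7 FPKM in the wild type. The 4 intervals overlapped each other.

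In sums over a compartment, ribosome-bound genes had 4411 FPKM in tetO-*GLN4* with doxycycline and 10065 FPKM without, against 8747 and 8562 FPKM in the wild type. The stress-induced genes had 4440 FPKM with doxycycline and 2550 FPKM without, against 5111 and 5537 FPKM in the wild type, and *HSP12* makes up most of these sums. With doxycycline the summed level of the 2 groups in tetO-*GLN4* was therefore nearly equal. The CCT ring summed to 1604 and 1907 FPKM with and without doxycycline in tetO-*GLN4*, and the endoplasmic reticulum genes to 732 and 960 FPKM. The FPKM of all features summed to 1.70e+06 with doxycycline and 2.62e+06 without in tetO-*GLN4*, and to 2.44e+06 in both wild-type conditions. A lower sum of a compartment in tetO-*GLN4* with doxycycline is therefore not by itself a smaller share of the total.

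Because the strain is depleted of the enzyme that charges glutamine tRNA, the share of glutamine codons in the members was counted in the R64 coding sequences. The median was 3.65% over the 48 genes and 3.68% over 6008 nuclear coding genes. It was 3.41% in the 13 genes that rose, 4.0% in the 8 that fell and 3.66% in the 27 that did not separate. *EGD1* had the highest share with 8.28% and *HSP60* the lowest with 2.27%, and *EGD2* had 6.90%. *HSP30*, with the lowest ratio of the 48, had 2.41%, so the 3 members with the lowest ratios stood at both ends of the range.

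A further list of 58 chaperone and folding genes outside the 48 was read in the same way. Of these, 57 were listed and 56 could be tested in tetO-*GLN4*, where 11 rose, 12 fell and 33 did not separate, with a median ratio of 0.10. Beside them, 15.0% of all features tested in this strain rose and 16.1% fell. The groups within the list are small, and no test between groups was made. In the wild type 0 of 56 separated. Of the prefoldin and CCT cofactor genes 1 of 8 rose and 2 fell. Of the other cytosolic J-domain, Hsp70 and nucleotide exchange genes 4 of 11 rose and 0 fell, and of the other endoplasmic reticulum genes 1 of 14 rose and 5 fell. Among the other mitochondrial genes 1 of 10 rose and 3 fell. The other Hsp90 cochaperones had 1 of 6 higher and 1 lower, and the other stress-induced genes 3 of 7 tested higher and 1 lower. The 3 highest ratios among genes of at least 1 FPKM in both conditions were those of the desiccation-induced *SIP18* (2.38, SD 0.35), the glyoxalase gene *HSP31* (1.31, SD 0.22) and the J-domain gene *JJJ3* (1.28, SD 0.23). The 3 lowest were the prolyl isomerase gene *CPR5* (-1.40, SD 0.22) and the disulphide isomerase gene *MPD1* (-1.18, SD 0.22), both of the endoplasmic reticulum, and *PPT1*, an Hsp90-bound phosphatase gene (-1.11, SD 0.21).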

How the data were processed

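Total RNA of 12 cultures was made into stranded mRNA libraries. The authors mapped the reads with TopHat (version 1.4.0 and builds R64 and sacCer3 in the submitters' processing notes) and the deposited FPKM values came from Cuffdiff, run per strain (its version is not given in the sources used here). Cuffdiff scaled fragments by transcript length and library size and combined the 3 cultures of a condition into 1 FPKM with a 95% confidence interval. No counts, totals or values per culture were analysed, so the depth is unknown. Columns of samples from elsewhere numbered 0. The authors' tables of fold changes, test statistics, p-values and q-values were not used.

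Features with status OK and an FPKM above 0 in both conditions were tested (6553 in tetO-*GLN4*, 6560 in the wild type). The log2 ratio was taken without a pseudocount, and its SD from the distance of an FPKM to its upper bound as 2 SDs. A call needs intervals that lie apart. The difference between strains was tested by a two-sided z test of the 2 log2 ratios with Benjamini-Hochberg adjustment at 0.05. These p-values rest on the intervals of pooled values and not on a spread between cultures. Alternatives were a z test within a strain, a 2-fold limit, centring on the median or the FPKM-weighted mean, pseudocounts of 1 and 0.1, a minimum of 1 FPKM, summed paralog pairs and another grouping of *SSA1*. The call and both z tests were tested on simulated data. The simulated noise was drawn from the same intervals that the tests use. It therefore checks the code and not whether the intervals match the spread between cultures.

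The members and lists were chosen with earlier results of these data known. All 48 members are named, and of the 58 other genes the 3 highest and 3 lowest ratios of at least 1 FPKM in both conditions. All 48 coding regions lie inside the deposited loci in R64, and 40 are identical with them. For 9 members (*SSB1*, *SSZ1*, *SSA1*, *CPR6*, *CCT2*, *CCT6*, *CCT8*, *PDI1* and *HSF1*) the locus is shared with another listed feature. Whether counting used the strand is not given in the sources used here, so reads of these loci are uncertain. Motif letters were searched on both strands of the 500 bases before each start codon, which can reach into a neighbouring gene. Overlapping matches were joined. Identity of paralogs was taken from aligned coding sequences. Python 3.11.15, numpy 2.4.6, pandas 2.3.3, scipy 1.17.1 and matplotlib 3.10.9 were used.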

Additional observations from a re-analysis of the deposited data

Results flagged for a closer look

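The effect of doxycycline on 18 chaperone genes differed between tetO-*GLN4* and the wild type, by the z test of the difference of the log2 ratios (adjusted p under 0.05 over 6538 features, passed by 23.5% of them). The log2 ratio in tetO-*GLN4* minus that in the wild type was 3.25 for *HSP26*, 2.57 for *HSP82*, 2.27 for *BTN2*, 2.15 for *HSP78*, 2.0 for *AHA1*, 1.60 for *SSA3*, 1.29 for *STI1*, 1.10 for *SSA1*, 1.05 for *HSP12*, 1.04 for *SSE2*, 1.01 for *CPR6* and 0.83 for *MDJ1*. It was -1.09 for *ZUO1*, -1.12 for *SSZ1*, -1.15 for *SSB1*, -1.29 for *EGD1*, -1.46 for *EGD2* and -1.66 for *HSP30*. The 3 other genes whose intervals lay apart in tetO-*GLN4*, *SSB2*, *FES1* and *CCT5*, missed the threshold of this test. *HSP12* and *HSP30* differed between the untreated strains as well, as given with their levels.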

How the results depend on the processing

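No paired analysis was possible because the deposited values combine the 3 cultures of a condition, and leaving out each culture in turn was not run for the same reason. With a 2-fold limit added, 13 members were called in tetO-*GLN4*, 7 of them higher. Among all 6553 features tested there, 545 were higher and 571 lower under this limit. Centring on the FPKM-weighted mean gave 26 members higher and 2 lower (*EGD2* and *HSP30*) and medians of -0.45 for ribosome-bound, 1.54 for stress-induced, 1.04 for other cytosolic and 0.80 for mitochondrial genes, and it reversed the sign of the medians of the CCT ring (0.49) and the endoplasmic reticulum (0.22). On that scale 13 genes gained and 6 lost intervals that lay apart. Pseudocounts, the minimum of 1 FPKM, centring on the median, summed pairs, the other grouping of *SSA1* and the z test left the counts, where they apply to them, within 1.5 times and the medians within the median SD of a single ratio. Centring on the median added a call for *KAR2*. The z test called 23 members in tetO-*GLN4*, with *KAR2* and *SBA1* added, and 0 in the wild type. Over all features it called 18.9% higher and 20.1% lower in tetO-*GLN4*, and 0.0610% and 0.0457% in the wild type. Without counts, changes smaller than the intervals (a median SD of 11.5% of an FPKM in each tetO-*GLN4* condition) could not be detected.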
